A study of Homo sapiens with 33 samples.

Results

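Nucleotide excision repair removes bulky lesions from DNA, among them the intrastrand crosslinks that cisplatin and carboplatin leave behind. The transcripts of 10 of its core factors were followed here, out of 29744 genes measured: XPC, DDB2, ERCC6, ERCC8, ERCC2, ERCC3, XPA, ERCC5, ERCC1 and ERCC4. Their rows were found by gene symbol. Their RNA was read in 33 poly(A) libraries, 3 for each of 11 human cell lines that derive from high-grade serous carcinoma of the ovary. The question was whether these transcripts differed between platinum-resistant lines and the platinum-sensitive line of the same origin.

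The lines formed 4 families. OVCAR3 and OVCAR4 were sensitive lines, and each had 2 resistant derivatives, ResA and ResB, that were raised independently by repeated short pulses of cisplatin at rising dose and were then kept without the drug. PEA1 was a sensitive line, and PEA2 was a resistant line established from the same patient after clinical resistance. PEO1 was sensitive, and PEO4 and PEO6 were the resistant lines from its patient. The labels do not say whether the 3 libraries of a line came from separate cultures, so the p-values measure the spread between these libraries, which may be technical. In bulk RNA, a change in every cell and a change in the share of cells that express a gene cannot be told apart. Each comparison of a resistant with a sensitive line rests on 1 line against 1 line, so it describes these lines, and the resistant lines of one family share the libraries of one sensitive line.

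In this pathway a lesion is found in one of 2 ways. In global genome repair, XPC senses distorted DNA anywhere, helped by the DDB2 subunit of the UV-damaged DNA-binding complex. In transcription-coupled repair, a stalled RNA polymerase is recognised by ERCC6 (also called CSB) and ERCC8 (CSA). Both routes then bring in TFIIH, whose helicases ERCC2 (XPD) and ERCC3 (XPB) open the DNA around the lesion, and XPA, which checks the lesion. The nuclease ERCC5 (XPG) cuts on one side and the nuclease pair ERCC1 and ERCC4 (XPF) on the other, after which polymerases and ligases fill the gap. ERCC1 and ERCC4 also act outside this pathway, in the repair of crosslinks between the strands.

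The total of expected counts per library ran from 18058985 to 43394009. The libraries differed in the share of counts on the mitochondrial ribosomal RNA genes, from 1.12% to 14.8%, also among libraries of one line. Replicate 1 of OVCAR4 ResA (9.23%) and replicate 1 of OVCAR4 ResB (13.1%) correlated best with each other, whereas each of the other 31 libraries correlated best with a library of its own line. Replicate 3 of OVCAR3 ResB was at 1.12% against 5.97% and 8.88% in its fellow libraries, and replicate 2 of PEA1 at 7.62% against 3.59% and 4.02%. The tumour markers PAX8, EPCAM, KRT7, KRT8 and KRT18 averaged at least 1 TPM in all 11 lines, but MUC16 was below that in PEA1 and WT1 in OVCAR4 and OVCAR4 ResB. The summed level of the 7 tumour markers was 403 to 445 TPM in PEA1 and 3414 to 3667 TPM in PEA2. The 3 leukocyte markers summed to 10.1 to 23.2 TPM in PEA1 and 52.0 to 54.7 TPM in PEA2. CD3E was never above 0.0558 TPM in any library. PTPRC averaged at least 1 TPM in PEA2 alone, with up to 3.57 TPM in a library, and CD68 averaged at least 1 TPM in all 11 lines. The 3 fibroblast markers summed to 66.0 to 105.6 TPM in PEA1, with COL3A1 and DCN at 0, and to 0.606 to 1.11 TPM in PEA2. PECAM1, an endothelial marker, reached 13.6 TPM in OVCAR3 ResB and averaged under 1 TPM in the other 10 lines. The part of these differences between PEA1 and PEA2 in the results below was not tested.

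All 10 genes were expressed in every line. On the TPM scale, which is per transcript length and allows genes to be compared, mean levels over the 33 libraries were 43.6 TPM for ERCC1, 29.0 for ERCC3, 18.3 for ERCC2, 15.3 for ERCC8, 14.5 for XPA, 12.1 for DDB2, 11.1 for XPC, 10.5 for ERCC5, 9.8 for ERCC4 and 2.88 for ERCC6. ERCC6 was thus the scarcest, and 15.4% of the genes that averaged at least 1 TPM lay below it. Between lines, ERCC2 varied most, by 6.49-fold from OVCAR3 (6.66 TPM) to PEA1 (43.2 TPM), followed by DDB2, by 5.99-fold from OVCAR4 (4.93 TPM) to PEO1 (29.5 TPM). The ERCC5 entry alone varied least, by 1.91-fold. Summed with BIVM-ERCC5, an entry that shares its exons, it ran from 8.71 TPM in OVCAR3 to 30.2 TPM in PEA1.

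When the 11 lines were put in order of mean TPM, most neighbours in that order had overlapping libraries. For ERCC2, ERCC3, ERCC5, ERCC8 and XPC none of the 10 steps separated the libraries of adjacent lines. DDB2 had 2 such steps, which set PEO1 and PEO6 above PEA2, and PEA2 above the other 8 lines. ERCC4 also had 2, with both OVCAR4 resistant lines above OVCAR4 and OVCAR4 above the rest. ERCC6 had a single step, below which lay OVCAR4 (1.10 ± 0.248 TPM, SD, n = 3) and PEA1 (1.03 ± 0.547 TPM). The lowest line stood apart for ERCC1, where it was OVCAR3, and for XPA, where it was PEO1.

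**Figure D1:**
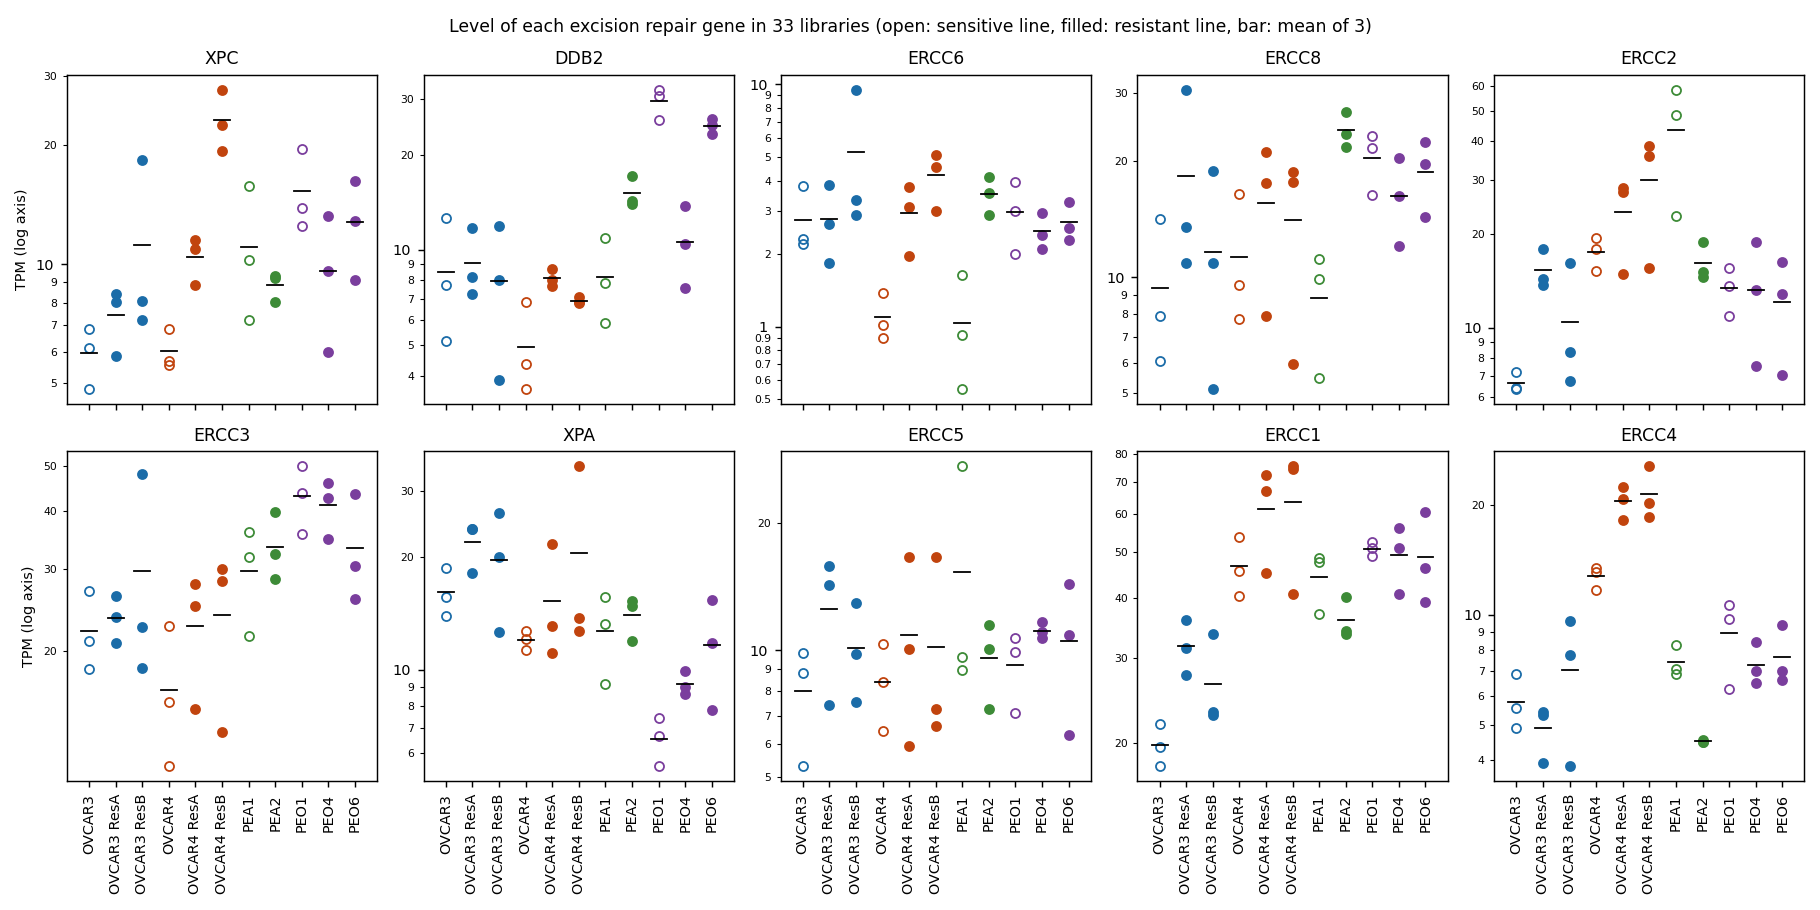
Level of each of the 10 genes in TPM (vertical log axis) in the 3 libraries of each of 11 lines (horizontal axis), with open points for sensitive lines, filled points for resistant lines, colours for families and a bar for the mean. OVCAR4 and PEA1 sit lowest for ERCC6, PEO1 and PEO6 highest for DDB2, and the 3 libraries of OVCAR4 ResB lie between 19.4 and 27.7 TPM for XPC.

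Folds between lines were taken from a DESeq2 fit on counts, and levels beside them are normalised counts, scaled for depth over all 33 libraries. A gene was called where its adjusted p was under 0.05 over all genes tested. All 10 genes were tested in every comparison. Over the 7 resistant lines against their sensitive lines, 13 of 70 gene-by-pair combinations were called, 10 higher and 3 lower in the resistant line. The share of all genes called differed widely between pairs. In OVCAR3 ResA 44.9% of all genes were called, 22.0% higher and 22.9% lower, and in OVCAR3 ResB 7.67%, 4.10% higher and 3.57% lower. In OVCAR4 ResA the share was 11.9%, 6.68% higher and 5.22% lower, and in OVCAR4 ResB 17.9%, 9.09% higher and 8.77% lower. In PEA2 it was 47.0%, 23.3% higher and 23.8% lower, in PEO4 33.3%, 16.6% higher and 16.7% lower, and in PEO6 41.4%, 21.2% higher and 20.3% lower. Of the 10 factors, the same pairs had 4, 0, 0, 2, 4, 2 and 1 called. The normalised counts of the 2 lines did not overlap for 2, 2, 4, 2, 5, 3 and 1 of the 10. Of all genes tested, 43.3%, 26.6%, 36.6%, 42.0%, 61.9%, 45.9% and 52.2% did not overlap in these pairs. Libraries without overlap, as given for single factors below, were thus common among all genes. In OVCAR3 ResB and OVCAR4 ResA, where DESeq2 called none, 0 and 1 of the 10 were past an unadjusted p of 0.05, and edgeR called 0 in both. In OVCAR4 ResA edgeR also called no gene on the other lists used below, so its result there says little about these factors.

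**Figure D2:**
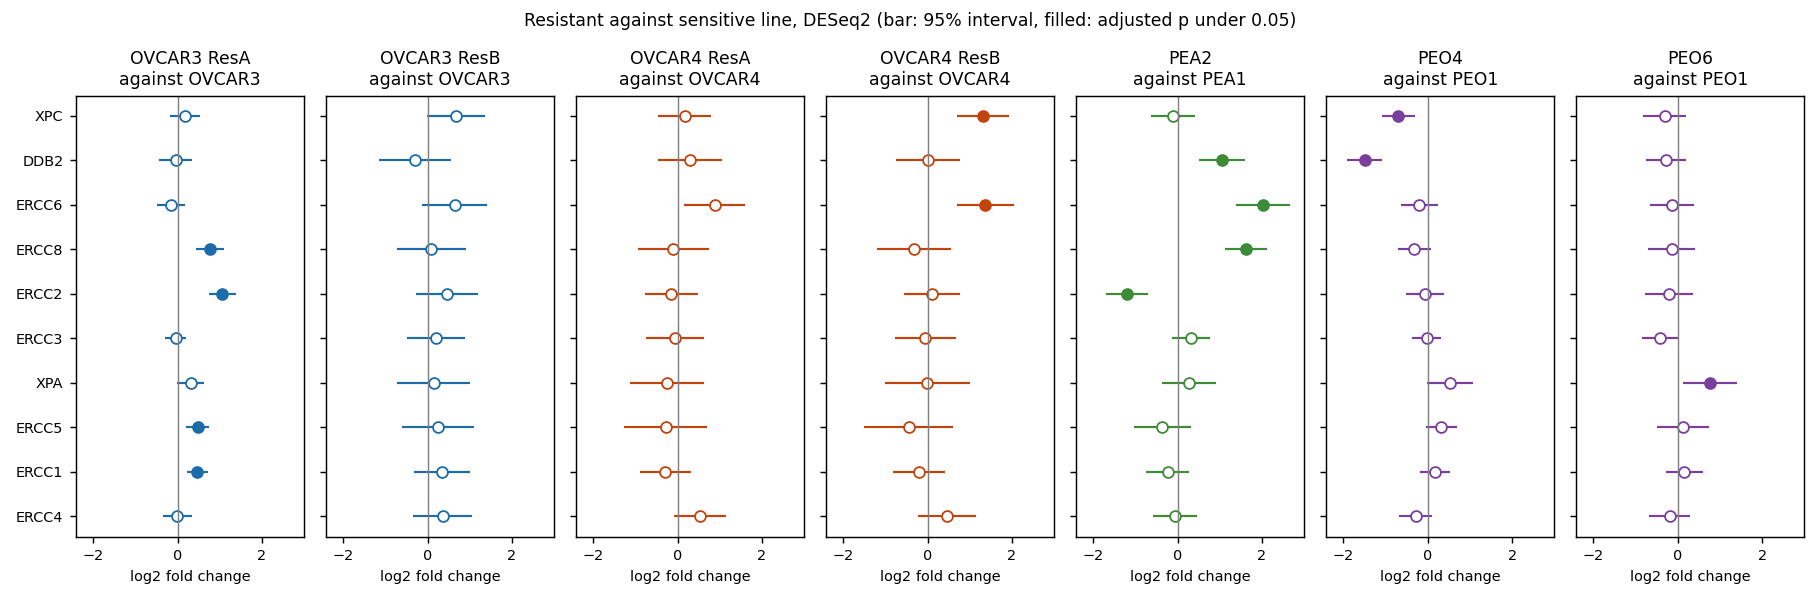
Log2 fold change of the 10 genes (rows) in each of the 7 resistant lines against the sensitive line of its family (panels), with bars for the 95% interval and filled points for an adjusted p under 0.05 in DESeq2. Filled points number 4 in OVCAR3 ResA and PEA2, 2 in OVCAR4 ResB and PEO4, 1 in PEO6 and 0 in the remaining panels, and XPC, DDB2 and ERCC2 have filled points on both sides of 0.

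No factor was called in more than 2 of the 7 pairs. Of the 10, 8 were called in at least 1 pair, and ERCC3 and ERCC4 in none, by DESeq2 or edgeR, with unadjusted p-values of at least 0.0577 and 0.0944. XPC, DDB2 and ERCC2 were each called higher in one pair and lower in another. Whether the 7 resistant-sensitive differences of a gene were unequal was tested by a likelihood ratio test over all libraries. The test called 7 of the 10 factors (DESeq2, adjusted p from 4.96e-15 for DDB2 to 0.0427 for ERCC1), beside 70.2% of all genes, and 4 without replicate 2. With the 3 libraries of each line summed and the line as the unit, none of the 10 was called between the 7 resistant and the 4 sensitive lines (DESeq2, adjusted p of at least 0.942). In that test 0 of the 10 were past an unadjusted p of 0.05, edgeR called 0, and 0.286% of all genes were called, 0.130% higher and 0.155% lower. The largest estimate there was for ERCC6, at 0.69 ± 0.39 (log2 fold change ± SE), with a 95% interval from -0.08 to 1.47.

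XPC, the lesion sensor of global genome repair, stood out in OVCAR4 ResB. Its normalised counts were 1248, 1007 and 1177 in the 3 libraries of OVCAR4 ResB, 556, 490 and 509 in OVCAR4 ResA, and 427, 483 and 455 in OVCAR4. The 3 libraries of ResB lay above all others of the family, and those of ResA lay just above those of OVCAR4. XPC was 2.49-fold higher in OVCAR4 ResB than in OVCAR4 (log2 1.31 ± 0.32 SE, DESeq2 adjusted p = 0.000556) and 2.22-fold higher than in OVCAR4 ResA (1.15 ± 0.13, DESeq2 adjusted p = 2.59e-18). Against OVCAR4 ResA it was called under all 15 alternatives. Against OVCAR4 the call was lost under 5 of 14 alternatives. These were the 3 limma fits of TPM, with adjusted p from 0.0548 to 0.0922, and the DESeq2 fits without replicate 2 (0.0785) or 3 (0.240). OVCAR4 ResA itself was 1.12-fold above OVCAR4, with a 95% interval of the log2 difference from -0.47 to 0.80.

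In the PEO family XPC went the other way. The counts were 1038, 847 and 766 in PEO1, 687, 562 and 393 in PEO4, and 588, 763 and 824 in PEO6. PEO4 lay below PEO1 in every library, by 1.61-fold (log2 -0.69 ± 0.20, DESeq2 adjusted p = 0.00208), and PEO6 overlapped with both. With the mitochondrial ribosomal RNA share as covariate and no block, the adjusted p for PEO4 was 0.285, and without replicate 1 it was 0.0984. In OVCAR3 ResB all 3 libraries (519, 574 and 843) lay above those of OVCAR3 (421, 339 and 451), which did not pass the test (0.67 ± 0.36, DESeq2 adjusted p = 0.336). It was called higher there in the fit of all 33 libraries (0.68, DESeq2 adjusted p = 0.0134) and with the mitochondrial covariate and no block (0.69, DESeq2 adjusted p = 0.0292).

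XPC starts 216 bp from LSM3, a gene for a spliceosomal Sm-like protein, and the promoter between them is shown because XPC passed the test in OVCAR4 ResB and LSM3 did not. The window runs from 250 bases before to 50 after the start in RefSeq (GRCh38.p14, chr3:14178552-14178851, minus strand). Capitals mark the single match to GGGCGG, the core of a GC box, searched on both strands as GGGCGG or CCGCCC.
XPC: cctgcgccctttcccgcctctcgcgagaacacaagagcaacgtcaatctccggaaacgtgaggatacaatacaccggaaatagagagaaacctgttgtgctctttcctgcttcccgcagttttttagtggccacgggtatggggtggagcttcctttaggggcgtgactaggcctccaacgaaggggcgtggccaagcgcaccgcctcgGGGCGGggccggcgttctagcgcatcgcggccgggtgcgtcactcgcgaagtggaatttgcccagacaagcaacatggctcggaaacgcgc
That motif is present in 44.95% of 35116 RefSeq windows of this length. LSM3 was at 0.22 ± 0.35 in OVCAR4 ResB against OVCAR4 (log2 ± SE, DESeq2 adjusted p = 0.744). In PEO4, by contrast, LSM3 fell by 0.76 ± 0.20 on the log2 scale against PEO1 (DESeq2 adjusted p = 0.000907), and in PEO6, where XPC was not called, it fell by 0.90 ± 0.27 (DESeq2 adjusted p = 0.00308).

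DDB2, the damage-binding partner of XPC, was highest in PEO1 and PEO6. The normalised counts were 819, 965 and 663 in PEO1, 793, 643 and 614 in PEO6, and 356, 283 and 225 in PEO4. PEO4 lay below both other lines without overlap, and PEO1 and PEO6 overlapped. DDB2 was 2.80-fold lower in PEO4 than in PEO1 (log2 -1.49 ± 0.21, DESeq2 adjusted p = 2.82e-11), a call that held under all 13 alternatives. PEO6 was 2.32-fold above PEO4 (1.21 ± 0.31, DESeq2 adjusted p = 0.00142), but the call was lost in the 3 limma fits and without replicate 1 (0.0625) or 2 (0.164). PEO6 against PEO1 was at -0.27 ± 0.24, with a 95% interval from -0.75 to 0.20. The 2 resistant lines of this patient thus differed from each other in DDB2, and they share the PEO1 libraries as reference.

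In the PEA family DDB2 was higher in the resistant line, at 461, 386 and 441 normalised counts in PEA2 against 274, 176 and 183 in PEA1. The difference was 2.08-fold (1.06 ± 0.28, DESeq2 adjusted p = 0.000507), without overlap, and of 14 alternatives only leaving out replicate 1 of both lines lost the call (adjusted p = 0.0518). In the OVCAR3 and OVCAR4 families DDB2 was not called. OVCAR4 had the lowest level of all lines, at 173, 136 and 157 counts, and OVCAR4 ResA (223, 174 and 183) lay just above it (0.29 ± 0.39, DESeq2 adjusted p = 0.705).

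DDB2 ends 85 bp from ACP2, a lysosomal acid phosphatase gene on the other strand. The 2 genes moved in opposite directions in the pairs where DDB2 was called. In PEA2, ACP2 was at 2.65 TPM against 9.88 TPM in PEA1 and fell by 1.87 ± 0.31 on the log2 scale (DESeq2 adjusted p = 1.17e-08). In PEO4 it was at 21.7 TPM against 12.6 TPM in PEO1 and rose by 0.75 ± 0.24 (DESeq2 adjusted p = 0.00705). The window at the first annotated DDB2 start, at the far end of the gene from ACP2, is shown (RefSeq GRCh38.p14, chr11:47214204-47214503, plus strand). Capitals mark matches to CCAAT, searched on both strands as CCAAT or ATTGG and present in 34.6% of all windows.
DDB2: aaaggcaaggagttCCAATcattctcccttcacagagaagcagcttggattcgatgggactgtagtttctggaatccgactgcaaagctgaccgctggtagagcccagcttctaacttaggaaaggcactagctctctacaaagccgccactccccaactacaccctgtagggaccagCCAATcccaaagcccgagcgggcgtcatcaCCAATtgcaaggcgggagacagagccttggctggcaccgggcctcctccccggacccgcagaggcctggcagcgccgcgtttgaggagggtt
This window holds 3 CCAAT matches and no match to GGGCGG.

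DDB2 is a textbook p53 target in human cells, and the table holds a second start for it at position 47214974 of chromosome 11. A pair of p53 half-sites, searched by name with a spacer of 0 to 13 bases, was found 6 to 26 bases into that transcript (chr11:47214979-47214999, plus strand, GRCh38.p14). The 21 bases, with the half-sites and the base between them in capitals, read as follows.
DDB2 site: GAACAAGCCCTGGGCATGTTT
Such a pair was present in 10 of the 35116 windows, or 0.0285%. None of the windows of the other 9 factors held one, which says only that these letters are absent from those windows.

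Of 16 other p53 target genes on a list, 6 were higher and 4 lower in PEA2, beside 23.3% and 23.8% of all genes. In PEO4 4 were higher and 3 lower, beside 16.6% and 16.7% of all genes, and in PEO6 5 higher and 4 lower, beside 21.2% and 20.3%. In OVCAR3 ResB 1 was higher and none lower, beside 4.10% and 3.57%. CDKN1A, the cyclin-dependent kinase inhibitor, was 15.8 ± 1.30 TPM in PEA2 against 4.90 ± 1.80 TPM in PEA1 and rose by 1.89 ± 0.28 on the log2 scale (DESeq2 adjusted p = 2.78e-10), as DDB2 did. In PEO4 CDKN1A rose by 1.66 ± 0.31 (DESeq2 adjusted p = 9.08e-07) where DDB2 fell, so the 2 genes moved in opposite directions in that line. MDM2, the ubiquitin ligase for p53, fell by 0.58 ± 0.23 in PEA2 (DESeq2 adjusted p = 0.0269) and was at 0.01 ± 0.16 in PEO4. In OVCAR4 ResA 7 of the 16 were lower and none higher, and in OVCAR4 ResB 3 lower and none higher, beside 5.22% and 8.77% of all genes called lower there. The median log2 change of the list was -0.87 and -0.71 in those pairs, against -0.01 for all genes in both. By edgeR, 0 of the 16 were called in OVCAR4 ResA and 1 in OVCAR4 ResB. OVCAR3 ResA had 6 higher and 2 lower, beside 22.0% and 22.9% of all genes, with CDKN1A up by 3.09 ± 0.19 (DESeq2 adjusted p = 1.82e-55), while DDB2 was at -0.05 ± 0.20.

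ERCC6, the ATPase that responds to stalled polymerase, had the largest fold of the 70 combinations. Its normalised counts were 592, 531 and 465 in PEA2 and 124, 90 and 203 in PEA1, with no overlap. The difference was 4.03-fold (2.01 ± 0.33, DESeq2 adjusted p = 5.56e-09) and was called under all 14 alternatives, with log2 estimates from 1.18 to 2.43. In the OVCAR4 family the counts were 211, 192 and 201 in OVCAR4, 303, 392 and 445 in ResA, and 476, 590 and 513 in ResB. The 3 lines did not overlap and ran upward in that order. ERCC6 was 2.58-fold higher in OVCAR4 ResB than in OVCAR4 (1.37 ± 0.34, DESeq2 adjusted p = 0.00107), a call lost in the 3 limma fits and without replicate 2 (0.247) or 3 (0.252).

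OVCAR4 ResA against OVCAR4 was at 0.88 ± 0.37 (DESeq2 adjusted p = 0.109), and the adjusted p was 0.00498 without the replicate block and 0.00188 without replicate 1 of ResA (left out after seeing the data), the library nearest to one of ResB. OVCAR4 ResB was 1.41-fold above ResA (0.49 ± 0.18, DESeq2 adjusted p = 0.0189 with the block and 0.228 without it). The replicate numbers of ResA and ResB paired their libraries, and without the block XPC alone of the 10 was called between them. In OVCAR3 ResB a single library stood out, with 1118 counts against 532 and 568 in its fellows and 577, 383 and 418 in OVCAR3. In the PEO family ERCC6 was not called.

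The tables also list PGBD3, which lies inside ERCC6, and a joint transcript, ERCC6-PGBD3, that shares exons with both, so that reads of the locus were divided between 3 entries. PGBD3 was at 5.33 and 4.10 TPM in replicates 1 and 2 of OVCAR3 ResB and listed at 0 in replicate 3, where ERCC6 was highest. Summed over the 3 entries, OVCAR3 ResB was still highest in replicate 3, at 837, 762 and 1601 normalised counts. With the 3 entries summed, the counts were 834, 729 and 653 in PEA2 and 276, 184 and 412 in PEA1, and 598, 809 and 757 in OVCAR4 ResB and 277, 252 and 235 in OVCAR4. Both differences were called for the sum, at 1.43 (adjusted p = 1.42e-05) and 1.48 (adjusted p = 0.000333) on the log2 scale in DESeq2. The size of the PEA2 difference was thus smaller for the whole locus than for the ERCC6 entry.

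ERCC8, the substrate receptor of the ubiquitin ligase that acts with ERCC6, was also higher in PEA2. It was at 715, 697 and 925 normalised counts in PEA2 against 284, 193 and 297 in PEA1, without overlap. The difference was 3.07-fold (1.62 ± 0.26, DESeq2 adjusted p = 2.60e-09) and was called under all 14 alternatives. PEA1 had the lowest and PEA2 the highest mean level of all 11 lines, at 8.85 ± 2.98 and 24.0 ± 2.55 TPM. ERCC6 and ERCC8, which both act in the transcription-coupled branch, thus both rose in PEA2. The other 7 genes of that branch on a list, among them UVSSA, XAB2 and ELOF1, had none called in either direction there. Their median log2 change was -0.04, and 23.3% of all genes were called higher and 23.8% lower.

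ERCC8 in OVCAR3 ResA was 1.71-fold above OVCAR3 (0.77 ± 0.17, DESeq2 adjusted p = 3.07e-05). Its counts were 919, 429 and 384 in OVCAR3 ResA and 459, 297 and 237 in OVCAR3. The 2 sets overlapped, since replicate 1 was the highest library in both lines, and within each replicate number ResA was above OVCAR3. Without the replicate block the adjusted p was 0.118, and without replicate 1 it was 0.0841. The replicate numbers of these 2 lines did pair the libraries, and without the block only ERCC2 of the 10 was called in this pair, against 4 with it.

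NDUFAF2 lies beside ERCC8 and passed the test in the same pairs. This gene, for an assembly factor of respiratory complex I, starts 135 bp away, and it was at 166 TPM in PEA2 against 70.0 TPM in PEA1 and rose by 1.40 ± 0.32 on the log2 scale (DESeq2 adjusted p = 4.71e-05). It also rose in OVCAR3 ResA, by 0.86 ± 0.14 (DESeq2 adjusted p = 1.69e-09), and fell by 1.16 ± 0.38 in OVCAR4 ResA (DESeq2 adjusted p = 0.0269), where ERCC8 was at -0.10 ± 0.43. Of the 10 nearest genes that averaged at least 1 TPM, 5 on each side, 9 were tested in PEA2, and 8 were higher and none lower, with a median log2 change of 1.23, beside 23.3% of all genes called higher. In OVCAR3 ResA, 5 of the 10 were higher and 2 lower, beside 22.0% of all genes called higher.

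ERCC2, the helicase that unwinds DNA at the lesion as part of TFIIH, moved in opposite directions in 2 pairs. Its normalised counts were 650, 525 and 608 in OVCAR3 ResA, 351, 347 and 501 in OVCAR3 ResB, and 285, 289 and 293 in OVCAR3. Both resistant lines lay above OVCAR3 in every library. The difference was 2.08-fold for ResA (1.06 ± 0.17, DESeq2 adjusted p = 1.74e-09) and was called under all 13 alternatives, whereas ResB did not pass the test (0.46 ± 0.37, DESeq2 adjusted p = 0.643). PEA2 was 2.30-fold below PEA1 (-1.20 ± 0.26, DESeq2 adjusted p = 1.39e-05), with 703, 588 and 650 counts against 1726, 985 and 1966. That call held under all 14 alternatives, and without replicate 2 of PEA1, the lowest of the 3 and left out after seeing the data, it was at -1.44 (DESeq2 adjusted p = 7.49e-06).

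ERCC2 and ERCC1 lie 36761 bp apart on chromosome 19, ERCC2 at chr19:45349837-45370573 and ERCC1 at chr19:45407334-45451547 (GRCh38.p14). In OVCAR3 ResA, 7 of the 10 nearest expressed genes of ERCC2 were higher and none lower, with a median of 0.79 on the log2 scale, beside 22.0% of all genes called higher. The nearest genes of ERCC1 gave the same count, and the lists overlap in part and each holds the repair gene of the other. On both lists was KLC3, a kinesin light chain gene that overlaps ERCC2, at 1.18 ± 0.21 (DESeq2 adjusted p = 1.01e-07). In PEA2, 7 of the 10 nearest genes of ERCC1 were lower and 1 higher, with a median of -0.97, beside 23.8% of all genes called lower, while ERCC1 itself was at -0.23 ± 0.26. Of the 10 nearest genes of ERCC2 there, 4 were lower and 1 higher, with a median of -0.26, and the higher one was again KLC3, which rose by 4.37 ± 0.44 (DESeq2 adjusted p = 3.35e-22) from 0.378 to 7.51 TPM. In these 2 pairs the overlapping gene KLC3 and ERCC2 thus moved together once and apart once.

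**Figure D3:**
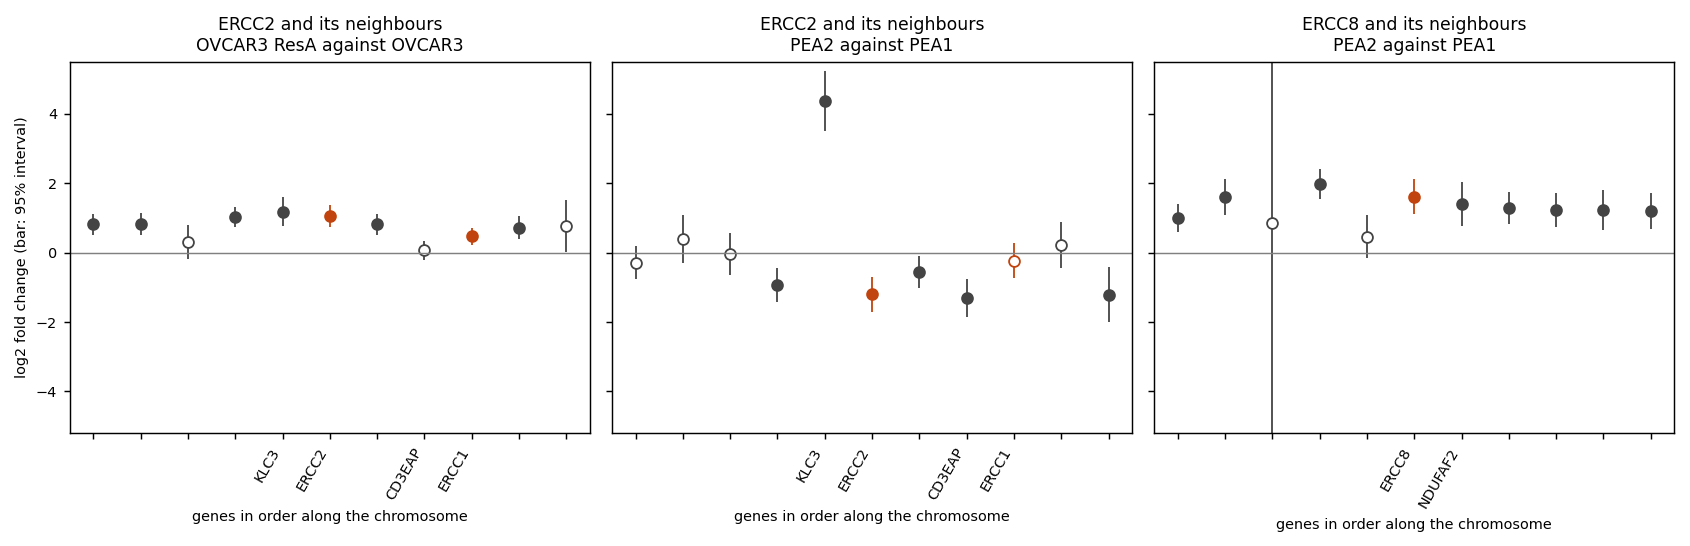
Log2 fold change (vertical axis, bars for the 95% interval) of ERCC2 or ERCC8 and the 5 nearest genes on each side that averaged at least 1 TPM, in order along the chromosome (horizontal axis), with filled points for an adjusted p under 0.05 in DESeq2 and repair factors in orange. Around ERCC2, 7 neighbours are higher in OVCAR3 ResA and KLC3 is far above the rest in PEA2, and around ERCC8, 8 neighbours are higher in PEA2. The interval of 1 neighbour of ERCC8 runs past the axis.

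ERCC3, the translocase that opens the DNA for TFIIH, was not called in any pair. Its log2 estimates ran from -0.42 in PEO6 to 0.31 in PEA2. All 3 libraries of PEA2 (1671, 1422 and 1356 normalised counts) lay above those of PEA1 (1258, 1037 and 1320), and all 3 of PEO6 (1223, 1326 and 1695) below those of PEO1 (1751, 1760 and 2014). Neither passed the test (DESeq2, adjusted p = 0.273 and 0.116). Of the 8 other TFIIH genes, 4 were higher and none lower in PEA2, beside 23.3% and 23.8% of all genes. Their median log2 change there was 0.60. In OVCAR3 ResA 3 were higher and 1 lower, beside 22.0% and 22.9% of all genes. ERCC2 was thus lower in PEA2 while none of those 8 was, and in the other 5 pairs at most 1 of the 8 was higher and at most 1 lower.

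XPA, the small zinc-finger protein that checks the lesion, was called in 1 pair. Its counts were 281, 344 and 155 in PEO6, 176, 195 and 240 in PEO4, and 114, 187 and 134 in PEO1. PEO6 was 1.71-fold above PEO1 (0.77 ± 0.33, DESeq2 adjusted p = 0.0448), with overlapping libraries, and the call was lost under 7 of 13 alternatives, among them without replicate 1 (0.430) or 2 (0.336). PEO4 was at 0.53 ± 0.28 against PEO1 (DESeq2 adjusted p = 0.145). The widest spread of XPA within a line was in OVCAR4 ResB, with 821 counts in replicate 1 and 216 and 225 in the others. With that library left out, a choice made after seeing the data, XPA was lower in OVCAR4 ResB than in OVCAR4 (-0.72, DESeq2 adjusted p = 0.0418), while with it the estimate was 0.00 ± 0.51. NCBP1, which overlaps XPA, fell by 0.75 in PEO6 on the log2 scale (DESeq2 adjusted p = 0.00443), where XPA rose.

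ERCC5, the nuclease known as XPG, had the widest spread between libraries of one line. In PEA1 its normalised counts were 578, 1982 and 496. The tables also list BIVM-ERCC5, a read-through transcript that joins the upstream gene BIVM to ERCC5, and it was high where ERCC5 was low. BIVM-ERCC5 was at 20.5, 0 and 24.2 TPM in the same 3 PEA1 libraries. With both summed the counts were 2137, 1982 and 2198 in PEA1, and 1215, 1090 and 1341 in PEA2.

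The sum changed the result for the PEA pair. For the ERCC5 entry alone PEA2 against PEA1 was at -0.36 ± 0.35 (DESeq2 adjusted p = 0.410), and with the mitochondrial ribosomal RNA share as covariate and no replicate block it was at 0.76, called higher (adjusted p = 0.00125). For the sum PEA2 was lower, at -0.79 (DESeq2 adjusted p = 0.00137), without overlap, and the test of unequal differences then also called ERCC5 (adjusted p = 0.0104). The sum was an alternative chosen after seeing the data. In the OVCAR4 family ERCC5 alone was at -0.28 ± 0.50 in ResA and -0.44 ± 0.54 in ResB and not called. With replicate 1 of the resistant line left out, also after seeing the data, it was lower in both, at -1.02 in ResA (DESeq2 adjusted p = 0.000432) and -1.27 in ResB (DESeq2 adjusted p = 1.36e-06). In OVCAR3 ResA ERCC5 was called with and without the sum. Its counts alone were 464, 943 and 1156 against 359, 689 and 798 in OVCAR3, or 1.39-fold higher (0.48 ± 0.14, DESeq2 adjusted p = 0.00202 with the block, 0.369 without it and 0.126 without replicate 3), and the sum gave 0.52 (adjusted p = 0.000372).

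**Figure D4:**
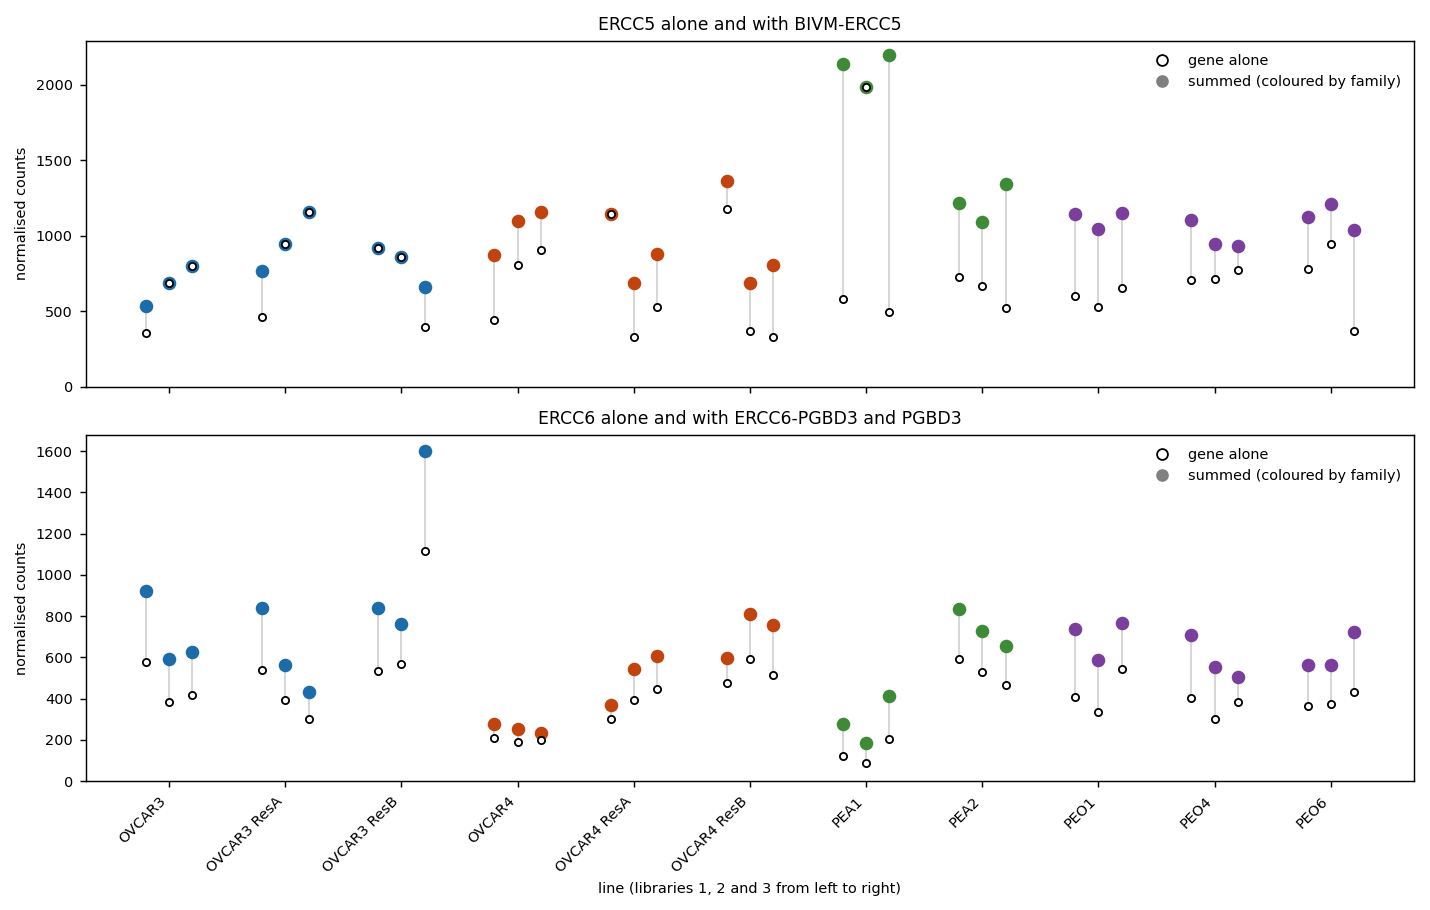
Normalised counts (vertical axis) of ERCC5 (top) and ERCC6 (bottom) in the 3 libraries of each line (horizontal axis), as listed for the gene alone (open points) and summed with the entries that share its exons (filled points, coloured by family). For ERCC5 the 3 PEA1 libraries lie at 578, 1982 and 496 alone and at 2137, 1982 and 2198 when summed.

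ERCC1, the non-catalytic partner of ERCC4 and a factor often measured in platinum-treated tumours, was higher in OVCAR3 ResA. The counts were 1047, 1218 and 1230 in OVCAR3 ResA, 1079, 1305 and 847 in OVCAR3 ResB, and 696, 954 and 925 in OVCAR3. ResA lay above OVCAR3 without overlap, by 1.39-fold (0.47 ± 0.13, DESeq2 adjusted p = 0.000969 with the block, 0.0574 without it and 0.0965 without replicate 1), and ResB overlapped with OVCAR3. ERCC1 was called in none of the other 6 pairs, where estimates ran from -0.29 in OVCAR4 ResA to 0.34 in OVCAR3 ResB. CD3EAP, which overlaps the end of ERCC1 on the other strand, was at 0.06 ± 0.14 in OVCAR3 ResA, and it fell by 1.30 in PEA2 and by 0.77 in PEO6 on the log2 scale, both past the DESeq2 test, where ERCC1 was not called.

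ERCC4, the nuclease that cuts with ERCC1, was called in no pair. The highest levels of all lines were in the OVCAR4 family, at 684, 938 and 872 normalised counts in OVCAR4, 1271, 1098 and 1256 in ResA, and 1459, 1093 and 927 in ResB. ResA lay above OVCAR4 without overlap (0.53 ± 0.32, DESeq2 adjusted p = 0.310). In a fit of all 33 libraries ERCC4 was called higher in both, at 0.55 (adjusted p = 0.0143) and 0.50 (adjusted p = 0.0241). In the other families no estimate exceeded 0.36 in size. The partners ERCC1 and ERCC4 were not called together in any pair.

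TPM and counts gave different pictures for ERCC1 and ERCC4. The gene length that TPM implies, as counts per TPM relative to the mean of the gene, ranged from 0.778 to 1.44 between libraries for ERCC1 and from 0.736 to 1.33 for ERCC4, against 0.998 to 1.004 for ERCC3 and 0.998 to 1.002 for ERCC5. ERCC4 was thus at 7.42 ± 0.739 TPM in PEA1 and 4.50 ± 0.0344 TPM in PEA2, without overlap, but at 325, 360 and 395 against 351, 339 and 327 normalised counts. TPM also shifted the median gene between lines, by 0.44 and 0.48 on the log2 scale in OVCAR4 ResA and ResB and by 0.14 and 0.12 in OVCAR3 ResA and ResB. All folds given here are those of the counts.

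Within a line, several factors followed the mitochondrial ribosomal RNA share of the library. Over the 33 libraries, each taken as its deviation from the mean of its line, the Pearson correlation with that share on log2 scales was 0.88 for XPA, 0.86 for ERCC5, 0.725 for ERCC1 and 0.39 for ERCC4. It was -0.87 for ERCC8, -0.86 for ERCC3, -0.67 for ERCC6, -0.64 for ERCC2, -0.34 for XPC and -0.33 for DDB2. The library with the highest share was the lowest of its line for ERCC8 in 9 of 11 lines and for ERCC3 in 8, and the highest for ERCC5 and ERCC4 in 8 and for XPA and ERCC1 in 7. For ERCC5 the entry was taken alone, without BIVM-ERCC5. In PEA1 the library with the highest share, replicate 2, was the highest for ERCC5 alone and the lowest for the sum (1982 against 2137 and 2198 counts). In OVCAR4 ResB the library with the highest share, replicate 1, was the highest both ways (1179 counts alone and 1362 summed). The correlations describe libraries of the same lines, which also differ in depth and composition. Such a relation was common, since 18.2% of 12374 expressed genes had a correlation above 0.7 and 21.7% one below -0.7. The median share was 4.93% in OVCAR3 against 3.79% in ResA and 5.97% in ResB, 12.0% in OVCAR4 against 2.09% in ResA and 2.47% in ResB, 4.02% in PEA1 against 2.78% in PEA2, and 2.34% in PEO1 against 3.45% in PEO4 and 3.32% in PEO6. With the share as a covariate and no block, the PEA2 calls of ERCC6, ERCC8, ERCC2 and DDB2 held. Between PEA1 (3.59% to 7.62%) and PEA2 (2.74% to 2.93%) the share did not overlap, so that fit separates share and line poorly. The calls of ERCC8 in OVCAR3 ResA, XPC in PEO4 and XPA in PEO6 were lost with the covariate and no block. With the block left out and no covariate, ERCC8 was already not called in OVCAR3 ResA (DESeq2 adjusted p = 0.118). XPC in PEO4 and XPA in PEO6 were still called in that setting (DESeq2 adjusted p = 0.018 and 0.048).

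**Figure D5:**
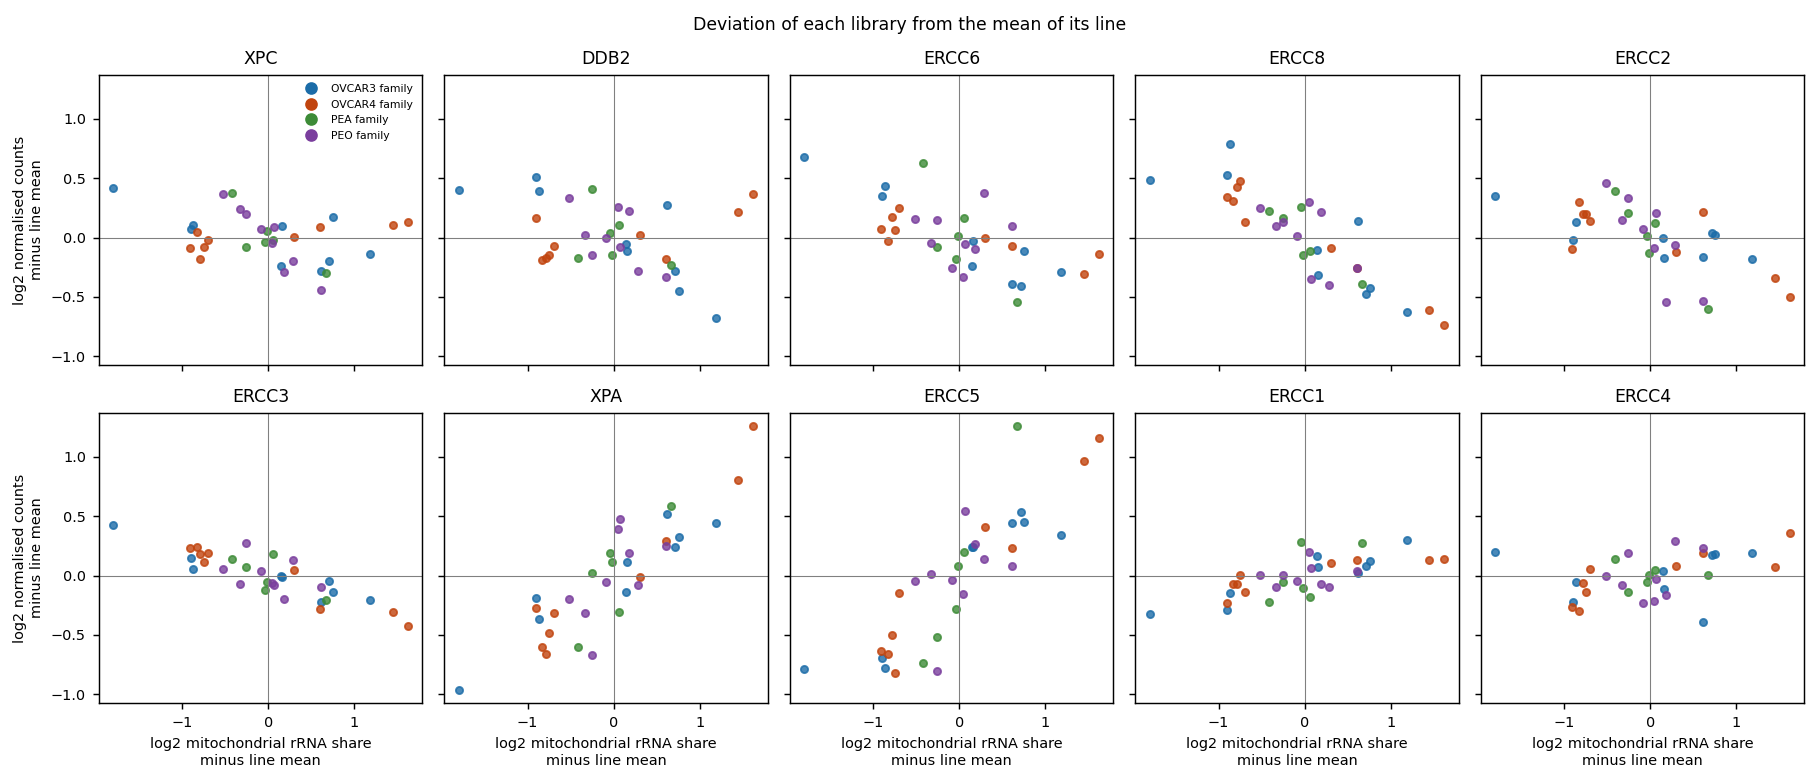
Deviation of each library from the mean of its line, in log2 normalised counts of the gene (vertical axis) against the log2 mitochondrial ribosomal RNA share (horizontal axis), for the 10 genes in 33 libraries coloured by family. XPA and ERCC5 run upward (0.88 and 0.86), ERCC8 and ERCC3 downward (-0.87 and -0.86), and XPC and DDB2 show little slope. ERCC5 is the entry alone, without BIVM-ERCC5.

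Some factors varied together across lines. With the mean log2 TPM of each line centred on its family, ERCC1 and ERCC2 had a Pearson correlation of 0.88 over the 11 lines, ERCC2 and ERCC5 0.87, and ERCC1 and ERCC5 0.86. The ERCC5 entry was taken alone, and in the 3 PEA1 libraries it was at 9.65, 27.2 and 8.96 TPM. The shifts of TPM between lines given above were not removed. The most alike of 14206 expressed genes were AFF1 and CLEC16A for ERCC1 (0.97 each), WHAMM and AP3S2 for ERCC2 (0.98 each), DTX2 and SLC25A45 for ERCC6 (0.98 each) and PLEKHG3 (0.99) and CHRDL1 (0.97) for ERCC8. For ERCC3 they were PSME3 (0.99) and VTI1A (0.99), for ERCC4 SRSF10 and FAM127B (0.98 each), for ERCC5 FIP1L1 (0.98) and NAPG (0.97), and for XPA GOLGA1 (0.99) and GDPD1 (0.98). XPC was most like LOC101927104 (0.98) and FBXL20 (0.97), and DDB2 like LOC101927506 and CRLS1 (0.95 each). With 11 lines in 4 families, few independent differences stand behind these values.

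The rest of the pathway was read from 43 other genes, sorted by step. Of these, 11 were higher and 7 lower in OVCAR3 ResA, none in OVCAR3 ResB, 2 higher and 1 lower in OVCAR4 ResA, and 1 higher and 3 lower in OVCAR4 ResB. In PEA2 12 were higher and 4 lower, in PEO4 4 higher and 8 lower, and in PEO6 4 higher and 15 lower. Of all genes, 22.0% were higher and 22.9% lower in OVCAR3 ResA, and 23.3% and 23.8% in PEA2. The shares were 16.6% and 16.7% in PEO4, and 21.2% and 20.3% in PEO6. The median log2 change of the 43 genes lay between -0.25 in PEO6 and 0.05 in OVCAR3 ResA. By edgeR, 0 of the 43 were called in OVCAR3 ResB, OVCAR4 ResA and OVCAR4 ResB, where 2, 4 and 11 were past an unadjusted p of 0.05 in DESeq2. In OVCAR4 ResA edgeR also called 0 of the 16 p53 targets, of which 13 were past that unadjusted p. Its count of 0 there thus cannot show that these genes were unchanged. Over the pairs, 1 of the 43 was called in at least 5, and that was CUL4B.

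CUL4B, a scaffold of the ubiquitin ligase that holds DDB2 or ERCC8, was called in 6 of 7 pairs, higher in 4 and lower in 2. It rose in OVCAR3 ResA (0.49 ± 0.11), OVCAR4 ResA (1.12 ± 0.34), OVCAR4 ResB (1.34 ± 0.36) and PEA2 (0.59 ± 0.21), and fell by 0.77 ± 0.16 in PEO4 and by 0.97 ± 0.23 in PEO6. In TPM it stood at 11.5 ± 4.29 in OVCAR4 against 35.1 ± 10.2 in ResA and 42.8 ± 14.4 in ResB, and at 67.6 ± 5.88 in PEO1 against 38.8 ± 2.79 in PEO4 and 35.4 ± 5.59 in PEO6. UVSSA, which steadies ERCC6 at the stalled polymerase, was the one of the 43 with the largest rise in both PEO pairs, at 1.15 ± 0.20 in PEO4 and 1.77 ± 0.29 in PEO6, from 4.53 ± 1.12 TPM in PEO1 to 9.66 ± 1.08 and 16.3 ± 5.97 TPM. ERCC6 itself was called in neither of them.

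Among the genes of gap filling, 8 of 18 were lower and none higher in PEO6, beside 20.3% and 21.2% of all genes. Their median log2 change there was -0.55. In PEO4, 5 were lower and 1 higher, beside 16.7% and 16.6% of all genes. The clamp PCNA fell by 0.98 ± 0.17 in PEO4, and the clamp loader subunit RFC4 by 1.26 ± 0.23 in PEO6, the largest falls of the 43 genes in those pairs. In PEO6, 8 of 10 proliferation genes were also lower and none higher, with summed levels of 442 to 988 TPM against 1089 to 1410 TPM in PEO1, and their part in the lower gap-filling genes was not tested. In PEA2 the polymerase subunit POLD4 rose by 1.64 ± 0.27 and the catalytic polymerase POLE fell by 1.53 ± 0.28, the largest changes of the 43 genes in that pair. Of the 43 in OVCAR3 ResA, POLD1 rose most (0.86 ± 0.16) and POLE fell most, by 0.62 ± 0.14. In OVCAR4 ResA POLE2 fell by 1.14 ± 0.38. In OVCAR4 ResB the ubiquitin ligase subunit RBX1, which is not a gap-filling gene, fell by 1.28 ± 0.41. All of these changes passed the DESeq2 test, and none of the 43 genes was called in the same direction in more than 4 pairs.

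Between the resistant lines of one family, the differences called were XPC and ERCC6 between the OVCAR4 derivatives, beside 32.8% of all genes called (16.2% higher and 16.5% lower in ResB), and DDB2 between PEO6 and PEO4, beside 18.2% (9.86% higher and 8.33% lower in PEO6). Between OVCAR3 ResB and ResA none of the 10 was called, beside 13.5% of all genes (7.47% higher and 6.04% lower in ResB), with 0 past an unadjusted p of 0.05 and 0 called by edgeR. Without replicate 3 of OVCAR3 ResB, left out after seeing the data as the library with the lowest mitochondrial share, ERCC8 was lower in ResB than in ResA (-1.18, DESeq2 adjusted p = 0.00431). All 3 libraries of ERCC2 in ResB lay below those of ResA (-0.60 ± 0.36, DESeq2 adjusted p = 0.323). Of all genes tested, 35.3% did not overlap between OVCAR3 ResB and ResA. The share was 26.9% between OVCAR4 ResB and ResA and 42.0% between PEO6 and PEO4. Of the 10 factors, 2, 2 and 1 did not overlap in these comparisons.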

How the data were processed

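The samples are cultured human lines of high-grade serous carcinoma, sensitive or resistant to platinum. Poly(A) libraries were prepared with the KAPA mRNA HyperPrep kit and sequenced on a NextSeq. The authors ran nf-core/rnaseq with salmon on GRCh38, and the labels' processing notes name DRAGEN and GRCh38. Whether counting used strand is not given in the sources used here, so reads of genes that overlap on opposite strands cannot be told apart. The gene tables deposited by the authors hold expected counts (estimated by salmon, 88.39% of them whole) and TPM, for 29744 genes in 33 libraries. Of these genes, 4956 were at 0 everywhere. Library totals, between 18058985 and 43394009 expected counts, limit the precision of transcripts with few counts.

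Lines were grouped by label, and the roles sensitive and resistant came from the study's text. Expected counts were rounded and each pair was fitted with DESeq2 1.42.0 (R 4.3.3) on 6 libraries with replicate number and line as terms, as in the study's methods, without a filter and at an adjusted p threshold of 0.05 (Benjamini-Hochberg over all genes tested). Intervals are 95% Wald intervals. The line-level test summed the libraries of each line, with family and role as terms. The likelihood ratio test compared replicate and line with replicate, family and role. Normalised counts used median-of-ratios size factors over 33 libraries. edgeR 4.0.16, limma 3.58.1 on log2(TPM + 1) and log2(TPM + 0.1), other factors, a filter of 10 counts in 3 libraries, the mitochondrial ribosomal RNA covariate, left-out replicates and summed loci were alternatives. The steps were tested on simulated data.

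Members and gene lists were chosen with earlier results of these data known. Named were the 10 members, CDKN1A and MDM2. Other repair genes were named if called in at least 5 of 7 pairs or most changed in a pair (mean of at least 1 TPM). Also named were neighbours that overlap a member or share its promoter region, ACP2 beside the end of DDB2, and the 2 genes most alike in pattern. PGBD3, BIVM-ERCC5 and markers were named after their values were seen. Replicate numbers were taken to pair libraries where the deviations of all 3 same-numbered pairs correlated above 0.1. This held in OVCAR3 ResA with OVCAR3 (0.673, 0.206 and 0.451) and OVCAR4 ResB with OVCAR4 ResA (0.644, 0.468 and 0.505) and in no other pair. Promoter sequences and gene positions are from RefSeq (GRCh38.p14), matched by symbol for all 10 members.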

Additional observations from a re-analysis of the deposited data

Results flagged for a closer look

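For 7 of the 10 factors the resistant-sensitive differences were unequal over the 7 pairs, by a likelihood ratio test in DESeq2 that compares one common difference with a separate one for each line. The adjusted p was 4.96e-15 for DDB2, 5.42e-12 for XPC, 5.05e-09 for ERCC6, 8.65e-06 for ERCC2, 0.00257 for ERCC8, 0.0114 for ERCC4 and 0.0427 for ERCC1. DDB2 ran from -1.49 in PEO4 to 1.06 in PEA2 on the log2 scale, XPC from -0.69 in PEO4 to 1.31 in OVCAR4 ResB, ERCC6 from -0.19 in PEO4 to 2.01 in PEA2 and ERCC2 from -1.20 in PEA2 to 1.06 in OVCAR3 ResA. ERCC4 was unequal by this test although no single pair was called, with estimates from -0.29 in PEO4 to 0.53 in OVCAR4 ResA. Of all genes tested, 70.2% were unequal by the same test. The calls of ERCC1, ERCC4 and ERCC8 were lost without replicate 2, where the adjusted p was 0.544 for ERCC1, 0.202 for ERCC4 and 0.0705 for ERCC8 (DESeq2), and the call of ERCC1 was also lost without replicate 1 (0.214) and without the block (0.0593), and that of ERCC4 without replicate 3 (0.133). DDB2, XPC, ERCC6 and ERCC2 were called under every alternative run. The resistant lines of one family share the libraries of their sensitive line in this test.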

How the results depend on the processing

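Of the calls of single factors, those of ERCC2 in OVCAR3 ResA, ERCC2, ERCC6 and ERCC8 in PEA2, DDB2 in PEO4 and XPC between the OVCAR4 derivatives held under all alternatives run. The number of factors called moved by more than 1.5 times as follows. Without the replicate block it was 1 in OVCAR3 ResA (4 with it), 1 in OVCAR4 ResA (0) and 1 between OVCAR4 ResB and ResA (2), and in the other comparisons the block moved no count that far. Outside the 2 comparisons whose libraries were paired, the replicate numbers are only names. With the mitochondrial ribosomal RNA covariate and no block it was 2 in OVCAR3 ResB (0), 1 in OVCAR4 ResA (0), 4 in OVCAR4 ResB (2), 1 in PEO4 (2), 0 in PEO6 (1) and 2 between OVCAR3 ResB and ResA (0), and ERCC5 in PEA2 reversed to 0.76 from -0.36. In each of the 3 limma fits of TPM it was 0 in OVCAR4 ResB, 0 in PEO6, 1 between OVCAR4 ResB and ResA and 0 between PEO6 and PEO4, and without the filter also 1 in PEO4. With all 33 libraries in one fit it was 2 in OVCAR3 ResA, 1 in OVCAR3 ResB, 2 in OVCAR4 ResA, 0 in PEO6, 1 between OVCAR3 ResB and ResA and 1 between OVCAR4 ResB and ResA. With one replicate number left out it ranged from 2 to 3 in OVCAR3 ResA, 0 to 3 in OVCAR4 ResA, 0 to 4 in OVCAR4 ResB, 1 to 2 in PEO4, 0 to 1 in PEO6, 0 to 1 between OVCAR3 ResB and ResA, 1 to 1 between OVCAR4 ResB and ResA, 0 to 1 between PEO6 and PEO4, and 4 to 6 in the test of unequal differences. Single libraries were left out after seeing the data. Without replicate 3 of OVCAR3 ResB, 1 factor was called between OVCAR3 ResB and ResA. Without replicate 1 of OVCAR4 ResA, 3 were called in OVCAR4 ResA and 1 between ResB and ResA, and without replicate 1 of OVCAR4 ResB, 4 in OVCAR4 ResB and 1 between them. Without replicate 2 of PEA1 the same 4 factors were called in PEA2. The cause of these changes was not tested. Line means of DDB2, ERCC6 and XPA went down to 155, 139 and 145 normalised counts, and such counts limit the precision there.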
